A study of Mus musculus with 6 samples.

Results

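The C-type lectin genes described here are the 33 mouse genes on the array whose annotated symbol is Clec followed by a digit, out of 19937 genes with a probe set of their own. A probe set is a group of probes read as 1 value, and 34 probe sets carried a single Clec symbol. Clec4g alone had 2, and the one with the higher mean over the 6 arrays stood for it. The cells were mouse haematopoietic stem and progenitor cells transformed by HoxA9 and Meis1, a model of acute myeloid leukaemia, grown in medium with serum and the cytokines IL3, IL6 and SCF. Both groups carried HoxA9 and Meis1 and differed in the agent given for 5 days. On 3 arrays it was UNC0638, an inhibitor of the related lysine methyltransferases G9a and GLP (genes Ehmt2 and Ehmt1), and on 3 arrays it was DMSO, the solvent control. The labels do not say whether the samples of a group were separate cultures or clones, so the p-values speak of the spread among these arrays, part or all of which may be technical. The study's question was which genes depend on the enzymatic activity of G9a in such cells.

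C-type lectins share a fold that binds sugars, lipids or proteins, often with the help of calcium. In phagocytes many of them are surface receptors for fungi, mycobacteria and dying cells. Some activate the kinase Syk, through a motif of their own or through the adaptor chains encoded by Fcer1g and Tyrobp, and others carry an inhibitory motif that recruits phosphatases. The name does not make every member a receptor. Clec3a, Clec3b and Clec11a encode secreted proteins, Clec16a encodes an endosomal protein without a lectin domain, and the gene table lists Clec2j as a pseudogene.

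After UNC0638, 1 of the 33 genes rose and 0 fell at an adjusted p under 0.05 (limma, Benjamini-Hochberg adjustment over all genes). Among all genes tested 0.371% rose and 0.301% fell. The gene that rose was Clec4b2, an activating-type receptor that the gene table also lists as mDCAR1. At an unadjusted p under 0.05, 8 members including Clec4b2 were higher and 1 was lower, where 6.47% of all genes were higher and 6.21% lower. In 10 of the 33 members every UNC0638 array lay above every DMSO array, a larger share than the 9.59% of all genes. In 1 of the 33, Clec2e, every UNC0638 array lay below, a smaller share than the 7.4% of all genes. The median log2 difference was 0.15 over the 33 members and 0.012 over all genes. A difference above 0 was found for 28 members (84.8%), against 53.9% of all genes.

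Clec4b2 lies on chromosome 6 in the Dectin-2 cluster, and its closest named relative, Clec4b1 (also DCAR), lies between Clec4a4 and Clec4a2 in the same cluster. Sequence before their RefSeq starts is shown because these genes are close relatives with unlike readings on the array. Windows of 250 bases before a start were searched, and for Clec4b2 the first 95 bases are printed, since the gene table holds a longer Clec4b2 transcript that begins inside the window. The sequences are from RefSeq, on the mouse build GRCm38.p6 and the plus strand, and the capitals mark GAGGAA or its reverse complement TTCCTC, the core bound by PU.1, a transcription factor that myeloid cells depend on. The Clec4b2 bases are chr6:123172773-123172867 and the Clec4b1 bases are chr6:123049712-123049961.
Clec4b2: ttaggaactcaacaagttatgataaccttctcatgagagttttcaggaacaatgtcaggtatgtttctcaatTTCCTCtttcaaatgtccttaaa
Clec4b1: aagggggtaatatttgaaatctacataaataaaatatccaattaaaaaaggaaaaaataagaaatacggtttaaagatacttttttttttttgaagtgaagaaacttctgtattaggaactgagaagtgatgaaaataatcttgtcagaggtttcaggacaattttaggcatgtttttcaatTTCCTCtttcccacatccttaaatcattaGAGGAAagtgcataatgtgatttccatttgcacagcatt

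The full windows share a stretch that aligned over 146 columns with 108 identical bases (74%). It spans bases 250 to 112 before the Clec4b2 start and bases 138 to 1 before the Clec4b1 start, counted from the start each window was cut at. The PU.1 core at bases 178 to 173 before the Clec4b2 start aligned with the one at bases 68 to 63 before the Clec4b1 start. Windows were found for 7 of the 9 genes of the Dectin-2 cluster, and among their other pairs no local alignment was longer than 29 columns. RefSeq windows were found for 26 of the 33 genes, 29 windows in all. The core, searched on both strands, was in 15 of these 29 windows (51.7%) and in 23.3% of all 32851 windows of the same length. The letters TGANTCA (the AP-1 motif) were in 5 member windows (17.2%), against 6.75% of all windows. TTGCNNAA (part of the C/EBP motif) was in 4 (13.8%, against 9.56%) and the interferon-stimulated response element in 2 (6.9%, against 2.98%). Of those 2, 1 was the Clec4b1 window, at bases 75 to 66 before the start. It overlaps the PU.1 core there and is not marked above. The Clec4b2 window had 0. A match is a run of letters and was not tested as a binding site.

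On the UNC0638 arrays 1, 2 and 3 Clec4b2 had intensities of 407.5, 414 and 569.7, against 64.2, 76.5 and 114 on the DMSO arrays. Each UNC0638 value lay above every DMSO value by a wide margin. Its mean was 464 ± 91.8 in UNC0638 and 84.8 ± 25.7 in DMSO (SD, n = 3 each), a ratio of means of 5.47. On the scale of log2(intensity + 16), which was used for every test and understates the change of dim genes, the difference was 2.26 (95% interval 1.83 to 2.697, SE 0.19, limma adjusted p = 0.00527, probe set 10541599). Only 1 of the 19937 genes had a larger upward difference. The call held in each of 15 alternatives, with differences of 1.83 with a pseudocount of 64 to 2.46 with a pseudocount of 1, and adjusted p of 0.000163 to 0.0415. With 1 array left out in turn the difference ran from 2.11 to 2.46 and passed each time. Near-identical copies can share probes, so its signal is uncertain to that extent.

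**Figure D1:**
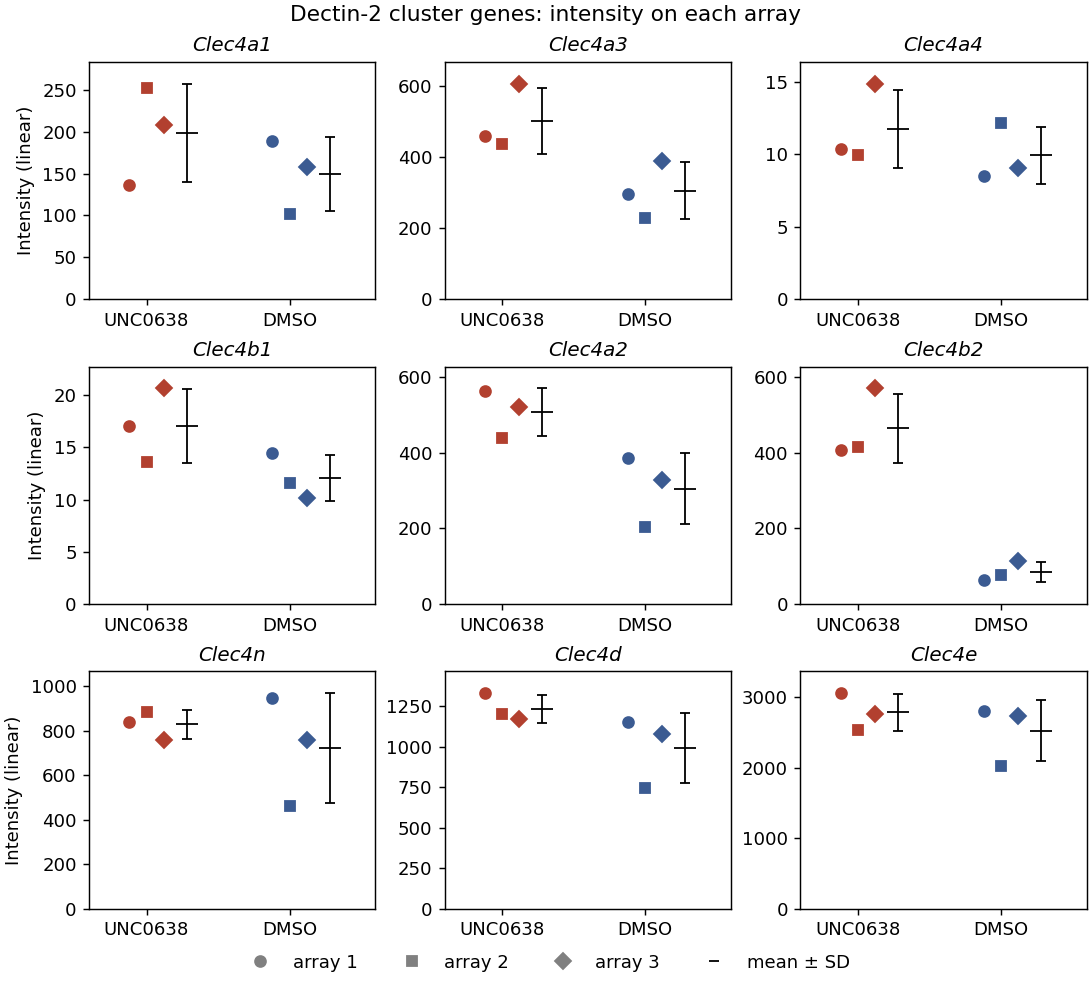
Linear intensity of the 9 genes of the Dectin-2 cluster on each of the 3 UNC0638 arrays (red, left) and 3 DMSO arrays (blue, right), in chromosomal order, with the mean and SD in black. Marker shape gives the array number. In Clec4b2 the UNC0638 arrays sit between 407.5 and 569.7 and the DMSO arrays between 64.2 and 114, while in Clec4n and Clec4e the groups overlap and DMSO array 2 is the lowest.

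The Dectin-2 cluster holds 9 members, and 1 of them, Clec4b2, passed the test and was higher (0.371% of all genes). All 9 differences were above 0 (53.9% among all genes), with a median of 0.33, and in 4 every UNC0638 array lay above every DMSO array (9.59% among all genes). Clec4b1, which in mouse binds mycobacterial lipids, was among the dimmest 40% of genes. It had intensities of 17.0, 13.6 and 20.7 in UNC0638 and 14.5, 11.5 and 10.2 in DMSO, with overlapping groups (difference 0.23, 95% interval -0.0018 to 0.47). Clec4a2 encodes DCIR, a receptor with an inhibitory motif, and is the gene before Clec4b2 in the chromosomal order. It had 562, 438 and 521 in UNC0638 and 386, 202 and 326 in DMSO. The groups did not overlap, and the difference of 0.74 did not pass (95% interval 0.27 to 1.21, adjusted p = 0.17). Clec4a3, a relative of DCIR, had 459.9, 436 and 606.5 in UNC0638 and 296, 229.8 and 389 in DMSO. It too was separated by group without passing (difference 0.70, 95% interval 0.27 to 1.13, adjusted p = 0.154). Over the 15 alternatives the limma adjusted p was 0.0785 to 0.324 for Clec4a2 and 0.0507 to 0.331 for Clec4a3.

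Another relative of DCIR, Clec4a1, had 136, 252 and 207 in UNC0638 and 189, 101.5 and 157.5 in DMSO, and the groups overlapped (0.37, 95% interval -0.18 to 0.93). Clec4a4, which encodes an inhibitory receptor of dendritic cells, was at 10.4, 9.96 and 14.9 in UNC0638 and 8.52, 12.1 and 9.08 in DMSO, in the dimmest 40% of genes. The other 3 genes of the cluster encode activating receptors that signal through the Fcer1g chain. Clec4n, which encodes Dectin-2, the receptor for fungal mannan, had 840.0, 885 and 758 in UNC0638 and 949, 459 and 759.9 in DMSO (0.25, 95% interval -0.26 to 0.76). Clec4d had 1333, 1202 and 1169 in UNC0638 and 1156, 746 and 1079.7 in DMSO, and the groups lay apart by a narrow margin (0.33, 95% interval -0.023 to 0.69, adjusted p = 0.435). Clec4e, which encodes Mincle, a receptor for mycobacterial cord factor, had 3063, 2540.0 and 2761 in UNC0638 and 2807, 2029.5 and 2742 in DMSO (0.15, 95% interval -0.16 to 0.46). The intervals of the other 8 genes of the cluster ended below 1.83, where that of Clec4b2 began, but a difference between the genes' responses was not tested.

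Within the DMSO group 1 array stood apart for this cluster. DMSO array 2 was the lowest of the 3 in 6 of the 7 cluster genes outside the dimmest 40%, the exception being Clec4b2, and in 10 of the 16 such genes of the whole family, compared with 34.2% of all such genes on the array. Without it the difference was 0.49 for Clec4a2, 0.52 for Clec4a3, 0.15 for Clec4a1, 0.14 for Clec4d, 0.0028 for Clec4e and -0.039 for Clec4n. That of Clec4b2 was 2.22 and passed (adjusted p = 0.0212). Leaving out the lowest control array of a gene must lower its difference. For Clec4b2 that was DMSO array 1, without which its difference was 2.11. The largest differences with 1 array left out were 0.93 for Clec4a2, 0.89 for Clec4a3 and 0.60 for Clec4a1. They were 0.45 for Clec4d, 0.24 for Clec4e and 0.47 for Clec4n. DMSO array 2 was also the lowest of its group for a list of 7 monocyte and macrophage markers. Their summed intensity was 18633, 17991 and 17582 in UNC0638 and 15715, 12821 and 15368 in DMSO. Without Lyz2, the brightest, the other 6 summed to 10255 to 10797 in UNC0638 and 7251 to 9176 in DMSO. The low array was not particular to that list. Sums of dendritic cell, natural killer cell, and mast cell and basophil markers were lowest on it too. Those of neutrophil, progenitor, megakaryocyte, T cell and B cell markers were not. Of the 7 monocyte and macrophage markers 0 passed the test, 5 were higher and 0 lower at an unadjusted p under 0.05 (6.47% and 6.21% of all genes), and all were outside the dimmest 40%. Differences were above 0 for 6 of them (53.9% of all genes) and below 0 for Mertk, named outside the naming rule. Mertk was at 97.4 ± 30.6 in UNC0638 and 118 ± 29.2 in DMSO (-0.26), with overlapping groups. The marker with the largest change was the macrophage gene Adgre1, with a mean of 1110 ± 117 in UNC0638 and 725 ± 169 in DMSO (0.63, adjusted p = 0.155). Its difference was 0.42 without DMSO array 2 and 0.75 without DMSO array 3. In a list of 10 genes of the neutrophil lineage 2 passed and were higher (0.371% of all genes). They were the chemokine receptor gene Cxcr2, with a mean of 632 ± 25.6 in UNC0638 and 262 ± 42.6 in DMSO (1.23, limma adjusted p = 0.00684), and the granule gene Ltf, with 126 ± 6.38 in UNC0638 and 68.0 ± 15.6 in DMSO (0.77, limma adjusted p = 0.0437). Cxcr2 missed the threshold without UNC0638 array 1 (adjusted p = 0.0534), and the call of Ltf was lost with each array left out except DMSO array 2 (adjusted p of up to 0.149). The summed intensity of that list overlapped between the groups, at 22632 to 26680 in UNC0638 and 21955 to 23085 in DMSO. A list of 5 mast cell and basophil markers, of which 0 passed, summed to 8194 to 8825 in UNC0638 and 6672 to 7719 in DMSO. Without Cpa3, the brightest, the other 4 summed to 3781 to 3867 in UNC0638 and 2921 to 3086 in DMSO. The largest change in that list was that of Mcpt8, at 2743 ± 78.7 in UNC0638 and 2038 ± 95.5 in DMSO (0.43, limma adjusted p = 0.0568). The part of any of these cells in the differences of the lectin genes was not tested, and in RNA from whole cultures more cells of a type and more RNA per cell cannot be told apart.

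**Figure D2:**
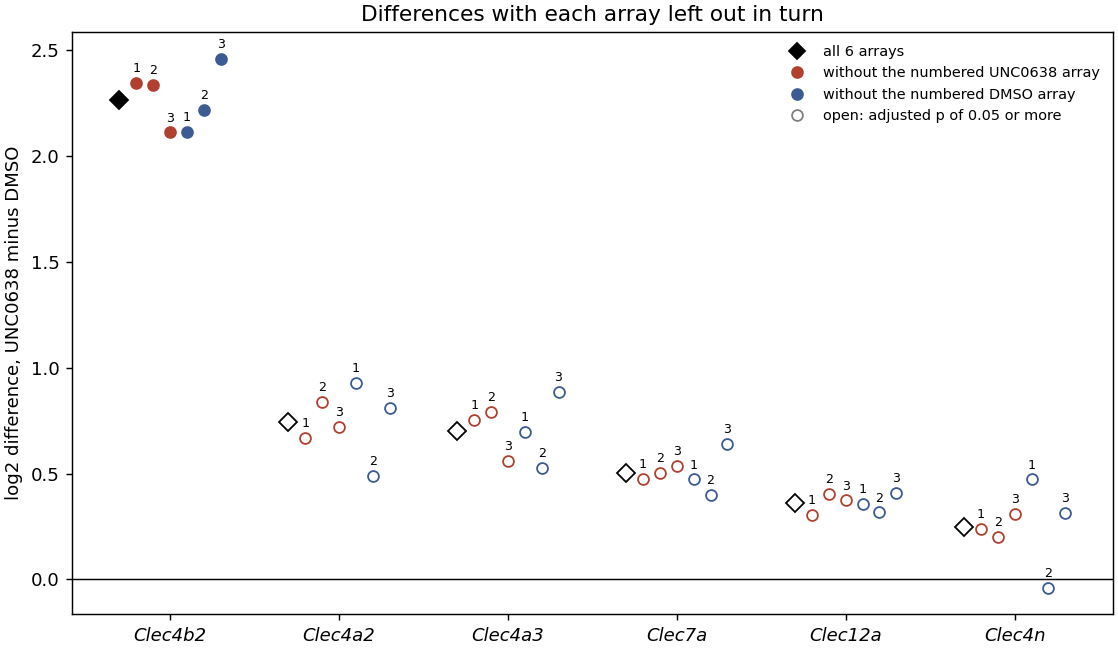
Difference between UNC0638 and DMSO on the scale of log2(intensity + 16) for 6 members with all arrays (diamonds) and with each array left out (circles, red for an array of UNC0638 and blue for one of DMSO, with its number). Filled symbols have an adjusted p under 0.05, which in this plot holds for Clec4b2 at every setting, between 2.11 and 2.46, while Clec4n crosses to -0.039 without DMSO array 2.

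The Dectin-1 cluster, farther along chromosome 6, holds 6 members. None passed the test at an adjusted p under 0.05. At an unadjusted p under 0.05, 2 members were higher, against 6.47% of all genes. All 6 differences were above 0 (median 0.11), against 53.9% of all genes. Of the 6 members 4 had a mean intensity under 45.8, and among all genes that dim 62% had a difference above 0. Clec7a encodes Dectin-1, the receptor for fungal beta-glucan, which carries its own Syk-activating motif. It had 495, 476 and 455 in UNC0638 and 316, 284 and 402 in DMSO, with no overlap (0.50, 95% interval 0.22 to 0.78, adjusted p = 0.124). Clec12a encodes an inhibitory receptor of myeloid cells. It had 2013, 1746 and 1826 in UNC0638 and 1439, 1358 and 1540.4 in DMSO, again with no overlap and without passing (0.36, 95% interval 0.16 to 0.56, adjusted p = 0.128). Over the 15 alternatives the adjusted p was 0.0554 to 0.306 for Clec7a and 0.0752 to 0.323 for Clec12a.

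The other 4 members of that cluster were among the dimmest 40% of genes and had overlapping groups. Clec9a marks dendritic cells that take up dying cells. It had 13.4, 7.96 and 20.3 in UNC0638 and 12.9, 10.5 and 11.8 in DMSO (0.088, 95% interval -0.23 to 0.41). Clec1b encodes the platelet receptor for podoplanin and was at 14.3, 13.5 and 19.3 in UNC0638 and 13.1, 13.0 and 15.4 in DMSO (0.084). Clec1a, a receptor for fungal melanin, had a difference of 0.061, and the inhibitory receptor gene Clec12b one of 0.13. Clec5a lies elsewhere on chromosome 6 and encodes a myeloid receptor that signals through the chain encoded by Tyrobp. It had 1179.6, 1166 and 1269 in UNC0638 and 1082, 1010.0 and 1124 in DMSO. The groups did not overlap, and the difference was small (0.17, 95% interval -0.018 to 0.35, adjusted p = 0.46).

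**Figure D3:**
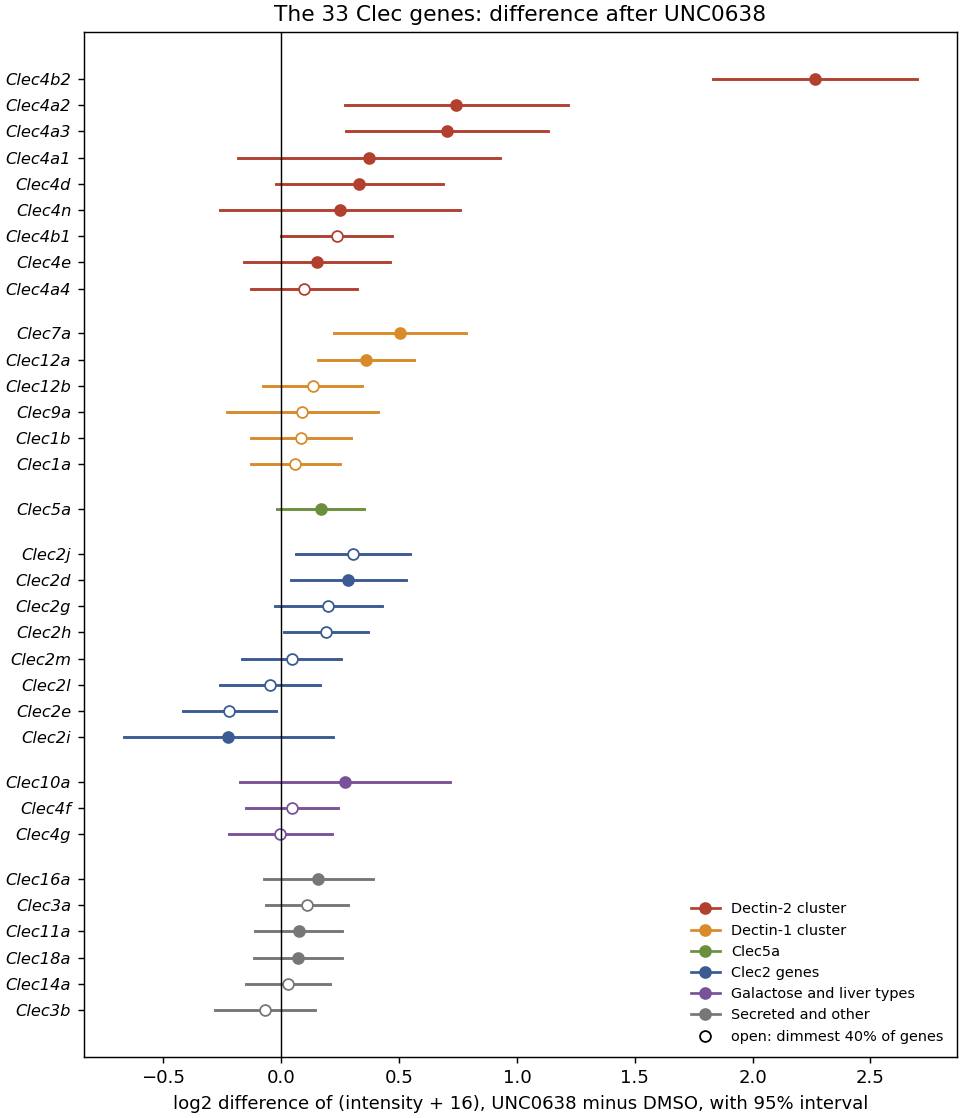
Difference between UNC0638 and DMSO on the scale of log2(intensity + 16) for the 33 Clec genes, grouped by cluster or kind, with bars for the 95% interval. Open circles are genes in the dimmest 40%. Clec4b2 stands at 2.26, and the other 32 genes lie between -0.22 and 0.74.

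Several Clec2 genes encode small surface lectins that are ligands of natural killer cell receptors of the Klrb1 family, and all but Clec2l are interspersed with those receptor genes on chromosome 6. Of 8 measured, 0 passed. Clec2i encodes the ligand of the receptor Klrb1f in mouse. It had 269, 139.7 and 216 in UNC0638 and 262, 227 and 227 in DMSO, with overlapping groups (-0.22, 95% interval -0.67 to 0.22), and its difference was 0.016 without UNC0638 array 2. Clec2d encodes the ligand of the inhibitory receptor Klrb1b. It had 68.0, 67.0 and 50.7 in UNC0638 and 50.8, 48.3 and 43.8 in DMSO, with 1 UNC0638 array just inside the DMSO range (0.28, 95% interval 0.040 to 0.53, adjusted p = 0.311). The remaining 6 were among the dimmest 40%. Clec2e was the 1 member whose UNC0638 arrays all lay below the DMSO arrays, at 15.0, 14.9 and 14.0 in UNC0638 and 17.0, 23.2 and 19.2 in DMSO (-0.22, 95% interval -0.42 to -0.023, adjusted p = 0.334). Clec2j and Clec2h had groups that did not overlap in the other direction, with differences of 0.31 and 0.19 and adjusted p of 0.271 and 0.36. Clec2g was at 0.20, Clec2m at 0.044 and Clec2l, a gene expressed mostly in the brain, at -0.046.

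The genes around the clusters were read in the order of the gene table. Of the 10 coding genes on each side of the Dectin-2 cluster 15 were measured, 0 passed, and their differences ran from -0.043 to 0.45 with a median of 0.075. The 9 lectin genes between them ran from 0.096 to 2.26 with a median of 0.33. The sets differ in brightness, which limits this contrast. Among the flanking genes the measured Vmn2r genes, Cd163, Mfap5 and Dppa3 were in the dimmest 40%, against 2 of the 9 lectin genes. Of the 15 flanking differences 11 were above 0. The largest were those of Apobec1 (0.45, limma adjusted p = 0.0826) and C3ar1 (0.35, limma adjusted p = 0.295), both outside the dimmest 40%. In the region of the Clec2 genes and the Dectin-1 cluster 24 coding genes without a Clec symbol were measured. Of these 1 passed and was higher (0.371% of all genes). It was Klrb1f, which lies next to Clec2e in the measured order and encodes the mouse receptor of Clec2i. It had 1299, 1202 and 1549 in UNC0638 and 668, 586 and 715 in DMSO, and the groups lay far apart (1.02, 95% interval 0.75 to 1.29, adjusted p = 0.0128). Leaving out UNC0638 array 1 took its adjusted p to 0.0682, with a difference of 1.04. Of 5 natural killer cell markers 1 passed and was higher (0.371% of all genes). That was Nkg7, which made up 94.8% of the list's summed intensity. It had 3574, 2531 and 2754 in UNC0638 and 1581, 1419 and 1674 in DMSO (0.90, limma adjusted p = 0.0285). Its call was lost with each array left out in turn (adjusted p of 0.0647 to 0.109). The other 4 summed to 112 to 140.1 in UNC0638 and 115 to 136 in DMSO, and Ncr1, Klrb1c and Gzma were in the dimmest 40% of genes.

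**Figure D4:**
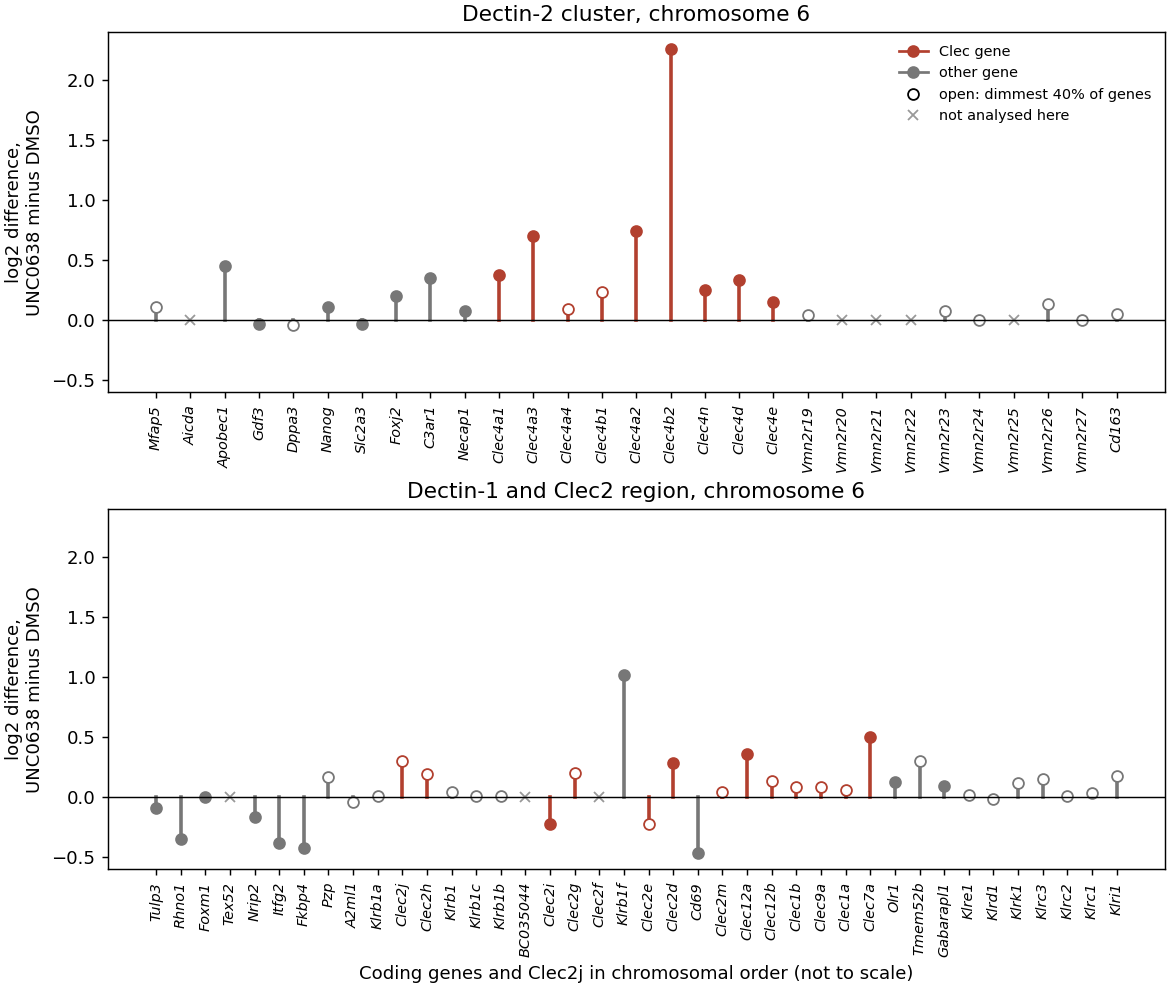
Difference between UNC0638 and DMSO on the scale of log2(intensity + 16) for coding genes and Clec2j in their order along chromosome 6, with 10 coding genes on each side of the Dectin-2 cluster (top) and of the region from Clec2j to Clec7a (bottom). Red stems are Clec genes, grey stems other genes, open circles genes in the dimmest 40%, and crosses genes not analysed here. The highest stems are Clec4b2 at 2.26 and Klrb1f at 1.02.

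Outside chromosome 6, none of 8 members passed. Clec10a encodes a macrophage receptor for galactose. It had 61.3, 39.5 and 82.2 in UNC0638 and 57.0, 42.3 and 40.5 in DMSO, and the UNC0638 arrays spread wider than the DMSO arrays (0.27, 95% interval -0.18 to 0.72). The difference was 0.076 without UNC0638 array 3 and 0.49 without UNC0638 array 2. Clec4g, a lectin gene of liver sinusoidal endothelium, was at -0.0035 (95% interval -0.22 to 0.22) and its other probe set at 0.16. Clec16a was at 0.16 with overlapping groups. Clec3a, a cartilage gene, was at 0.11 with groups apart (95% interval -0.065 to 0.29). Clec11a, which encodes a growth factor of haematopoietic and bone precursors, was at 0.074, with 79.8, 85.1 and 75.8 in UNC0638 and 74.5, 80.4 and 71.4 in DMSO. Clec18a was at 0.071, the endothelial gene Clec14a at 0.027 and Clec3b, the tetranectin gene, at -0.069, all with overlapping groups. Clec4f, the lectin gene of liver macrophages, lies on chromosome 6 apart from the clusters and was at 0.045 (95% interval -0.15 to 0.24).

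A list of 40 genes that carry the receptors' signals had 36 measured members, of which 0 rose and 0 fell. Of these 6 were higher and 0 lower at an unadjusted p under 0.05 (6.47% and 6.21% of all genes), and the median difference was 0.058. The largest change was that of the Src-family kinase gene Fgr, at 262 ± 24.3 in UNC0638 and 188 ± 24.7 in DMSO (0.45, 95% interval 0.20 to 0.70, adjusted p = 0.127). The following 3 genes were named for their role, outside the naming rule. Tyrobp, the adaptor of Clec5a, had 5360.5, 5164 and 5088 in UNC0638 and 4481, 3984 and 3974 in DMSO, without overlap and without passing (0.33, adjusted p = 0.13). Fcer1g, the adaptor of the activating Dectin-2 cluster receptors, was at 0.12 (95% interval -0.075 to 0.31) and Syk, the kinase they share, at 0.14 (95% interval -0.17 to 0.44, and 0.026 to 0.24 with 1 array left out).

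Of 66 further lectin genes without a Clec symbol 60 were measured, 1 rose and 0 fell (0.371% and 0.301% of all genes), and the median difference was 0.045. The one that rose was Klrb1f. At an unadjusted p under 0.05, 12 were higher and 1 lower (6.47% and 6.21% of all genes). Mgl2, the macrophage galactose lectin closest to Clec10a, was named outside the rule. It had 108, 82.4 and 100.4 in UNC0638 and 64.7, 44.7 and 48.5 in DMSO (0.72, 95% interval 0.43 to 1.02), and its adjusted p of 0.0568 fell under the threshold in 5 of 15 alternatives.

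The 6 arrays had median intensities of 50.4 to 54.9, and pairs correlated at 0.985 to 0.986 within UNC0638, 0.985 to 0.987 within DMSO and 0.980 to 0.987 between the groups, across the log2 values of probe sets, which are no replicates of each other. The progenitor genes Kit, Cd34 and Flt3 were outside the dimmest 40% and 0 of them passed the test. They summed to 2400 to 2635 in UNC0638 and 2133 to 2210 in DMSO, and Cd34 made up 75.7%. The other 2 summed to 520 to 654 in UNC0638 and 517 to 586 in DMSO. A list of 4 megakaryocyte and platelet markers, of which 0 passed, summed to 723 to 906 in UNC0638 and 912 to 1158 in DMSO. Without Pf4, the brightest, the other 3 summed to 361 to 401 in UNC0638 and 325 to 340 in DMSO. Of 8 dendritic cell markers, which summed to 403 to 412 in UNC0638 and 317 to 373 in DMSO, 4 were among the dimmest 40%. Of the 8, 1 rose (0.371% of all genes). It was Itgax, which macrophages also express, at 93.7 ± 6.09 in UNC0638, against 48.4 ± 4.37 in DMSO (0.77, adjusted p = 0.0118, and 0.0682 without UNC0638 array 1). Without Itgax the other 7 summed to 312 to 318 in UNC0638 and 271 to 327 in DMSO, and the groups overlapped. Transcripts of the inhibited enzymes did not pass: Ehmt2 was at -0.25 and Ehmt1 at -0.040. The number of arrays limits the precision of every value above.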

How the data were processed

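Total RNA was labelled as biotinylated cRNA, per the labels' protocols. The authors deposited 1 processed intensity per probe set and array, linear by its range, and the background correction, summarisation and normalization behind it were not stated: not given in the sources used here. Such steps can shrink the differences of dim probe sets. Of 34760 probe sets 21640 carry 1 gene symbol. Per gene the probe set with the highest mean was kept (19937 genes, 954 with several), and all 33 Clec symbols were found by Entrez number in the GRCm38.p6 gene table with 0 changed. Values were taken as log2(intensity + 16) and groups were tested with limma 3.58.1 under R 4.3.3 (lmFit, eBayes, group alone, Benjamini-Hochberg over all genes, threshold 0.05), tested on simulated data. Intervals are 95% moderated intervals. The dimmest 40% of genes have mean intensities under 45.8.

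Same-numbered samples of the groups deviated from their group means with correlations across genes of -0.0663, 0.111 and 0.0168, so the numbers were not taken as pairs. Promoter windows were aligned with Biopython 1.88 (local, first of the best alignments), and figures were drawn with matplotlib 3.10.9. The members and lists were chosen with earlier results of these data known. Every measured Clec gene could be named. In the other lists the rule allowed members past the threshold, or the one with the largest change where none passed, and not all of them are described. The alternatives were 2 scalings, a filter on dim genes, 2 treatments of probe sets, a prior with trend and robust options, a replicate block, pseudocounts of 1 and 64, and each array left out.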

Additional observations from a re-analysis of the deposited data

How the results depend on the processing

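The call of Clec4b2 and the count of 1 changed Clec gene held in all 15 alternatives, and the signalling list had 0 calls in each. The count of changed genes over the whole array was 134, and was 73 with the replicate block, 49 with a pseudocount of 64 and 10 to 69 with 1 array left out, where fewer samples were tested. It was 10 without UNC0638 array 1, 31 without UNC0638 array 2, 40 without UNC0638 array 3, 67 without DMSO array 1, 43 without DMSO array 2 and 69 without DMSO array 3. For the other lectins the count of 1 became 2 without the dimmest 40% of genes and with the replicate block (Mgl2 added), 3 with the trended robust prior and with a pseudocount of 1 (Mgl2 and Klra17 added), and 0 to 2 with 1 array left out, with 0 without UNC0638 array 1. The causes were not tested. With the replicate block Clec4b2 stayed at 2.26 (limma adjusted p = 0.00164), Mgl2 passed (0.0401) and Ltf no longer did (0.0754).

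Small differences changed sign. Under quantile normalization Clec4f was at -0.0028 and Clec14a at -0.010. Under median centring, which moved the median of all genes from 0.012 to -0.034, Clec4f was at -0.00058, Clec2m at -0.0015 and Clec14a at -0.018. Averaging both probe sets put Clec4g at 0.077. With 1 array left out the differences ran from -0.0075 to 0.057 for Clec14a, -0.015 to 0.10 for Clec4f, -0.025 to 0.12 for Clec2m, -0.067 to 0.059 for Clec4g, -0.42 to 0.016 for Clec2i, -0.061 to 0.24 for Clec9a, -0.039 to 0.47 for Clec4n, -0.098 to 0.041 for Clec2l, -0.12 to 0.0013 for Clec3b and -0.093 to 0.0061 for Ehmt1. Leaving out 1 array moved the difference by over 1.5 times, or changed its sign, in 22 of the 33 members, none of which passed the test. Members above 0 numbered 25 with median centring, 15 of 16 without the dimmest genes and 27 to 30 with 1 array left out. Of the 33 members 17 are among the dimmest 40%, and dim signal with the pseudocount limits what could be detected for them.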
